A study of Rattus norvegicus with 10 samples.

Results

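Fresh muscle at 0 h of PMI (the postmortem interval, the time since death) was represented by 5 arrays out of the 10 in the series, chosen by the 0h label alone, and every array of that label was kept. Each array held RNA from the femoral skeletal muscle of 1 adult male Wistar rat, an outbred laboratory strain, of wild type genotype, weighing under 200 g and sampled directly after cervical dislocation. Nothing else was done to these animals. The study set them against 5 rats kept for 48 h after death, which are not analysed here. The study names the femoral region and no single muscle, and the hour of day at which each rat was sampled is not given in the sources used here. The rats are called rats 1 to 5 after the number in their labels. With a single group there was nothing to test, so all values below are levels and spreads between these 5 rats. No tissue was measured on more than 1 array, and differences between animals, between the pieces of muscle taken and between hybridizations cannot be told apart.

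Skeletal muscle is built from fibres of several kinds. Slow, oxidative type I fibres use the myosin heavy chain Myh7 and a slow set of troponins, tropomyosin and light chains. Fast fibres use Myh2 (type IIa, oxidative), Myh1 (type IIx) or Myh4 (type IIb, glycolytic), with fast partners of the same proteins. In the rat thigh and leg, slow fibres are gathered in a few deep muscles and deep regions, and the superficial parts are made mostly of type IIb and IIx fibres. Endothelium, fibroblasts, fat cells, nerve and blood lie between the fibres.

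Each gene was read by a probe set, several short DNA probes summarised as 1 signal on the log2 scale, so that a difference of 1 is a 2-fold difference. Probes differ in how strongly they bind, so signals of different genes do not order their RNA amounts, and only differences of 1 probe set between rats are read as differences in level. There were 23188 probe sets for rat transcripts. Of these, 15049 had a gene symbol, for 15037 genes, and 8139 had none. As a limit of background, the 95th percentile of the 23 antigenomic probe sets, which match no rat sequence, was used. It lay between 6.41 and 6.65 on the 5 arrays.

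The arrays had nearly the same median signal, between 5.17 and 5.21, and correlated with each other at Pearson's r of 0.978 to 0.988 over the probe sets, which are not independent replicates. Rat 1 stood apart from the others. The median of its 1552 RG1 control probe sets was 4.87, against 4.59 to 4.64 in the other 4 rats, and the added labelling control dap read 9.02, against 8.01 to 8.18. Rat 5 had the lowest signal of 3 other added controls, with bioB at 9.08, against 9.51 to 10.08 in the other 4 rats, bioD at 11.65, against 12.19 to 12.75, and cre at 12.97, against 13.17 to 13.61. The main results that rest on rat 1 are also given without it.

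Of the 23188 probe sets, 5020 were above background in all 5 rats (21.6%), 16008 in no rat (69%) and 2160 in some rats (9.32%). The median SD between rats was 0.19, and the median range (the highest minus the lowest rat) was 0.47. A range of at least 1, here called a spread of at least 2-fold, was found for 1074 probe sets (4.63%), and a range of at least 2 (4-fold) for 68 (0.293%). Rat 1 held the lowest value in 31.9% and the highest in 32.1% of the 1074. Over all probe sets, the lowest value lay in rat 1 in 23.2%, in rat 2 in 18.6%, in rat 3 in 20.6%, in rat 4 in 20.1% and in rat 5 in 17.5%, and the highest in 23.3%, 17.1%, 20.1%, 21.4% and 18.2%. These shares are the background for the counts of lowest and highest rats below. Without rat 1, the ranges of 529 probe sets reached 1 (2.28%), which is the background for the counts without rat 1 below. Spread probe sets were most frequent at middle signals. They made up 6.66% of the 1771 probe sets with a mean between 8 and 10, but 3.47% of the 404 between 10 and 12 and 0% of the 26 above 12.

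The highest signals were those of fast muscle. Among the 20 brightest probe sets with a symbol were the skeletal actin Acta1 (13.54 ± 0.04; mean ± SD, n = 5 here and below), the fast troponin C Tnnc2 (13.39 ± 0.11), Myh4 (13.25 ± 0.08) and Atp2a1 (13.21 ± 0.03), the calcium pump of fast fibres. Enzymes of glycolysis and glycogen use followed, with the muscle enolase Eno3 at 13.14 ± 0.10, the muscle glycogen phosphorylase Pygm at 13.01 ± 0.10, Gapdh at 12.97 ± 0.22, Pgam2 at 12.45 ± 0.12 and Aldoa at 12.20 ± 0.20. Slc25a4, the ADP/ATP carrier of the mitochondrial inner membrane, stood at 12.96 ± 0.04. The rest were Tpm1, Myl1, Actn3, Myl11, Pvalb, Tnnt3, Casq1, Tnni2, Hrc and the cytochrome oxidase subunit Cox7a2. The highest signal on any array was 13.58. Whether the small ranges near that level come from a ceiling of the signal was not tested.

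Of the 37 gene lists read, the slow-fibre genes had the largest difference between rats in their median level. Of 12 slow-fibre contractile genes listed, 10 were measured, and all 10 spread over at least 1 log2 unit, beside 4.63% of all probe sets. Their median level was 5.73 in rat 1, 10.09 in rat 2, 7.10 in rat 3, 9.78 in rat 4 and 10.87 in rat 5. The lowest and the highest rat differed by 5.14 log2 units. The median of rat 1 lay under its background limit of 6.51, as did 6 of the 10 genes there, so this is a difference of signals and gives no exact fold of RNA. Without rat 1 the difference was 3.77. Then 10 of 10 genes still spread over at least 1 unit, beside 2.28% of all probe sets, since rat 3 was also low. In bulk tissue, fewer slow fibres and less of each RNA per fibre cannot be told apart.

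Tnnt1 (probe set TC0100000869.rn.2), the slow troponin T that ties the troponin complex to tropomyosin, had the largest range of all probe sets. Its level was 5.56 in rat 1, 11.34 in rat 2, 6.95 in rat 3, 10.75 in rat 4 and 12.06 in rat 5 (9.33 ± 2.89), a range of 6.50. Myh7, the slow myosin heavy chain, had levels of 4.08, 9.55, 4.97, 8.76 and 10.33 in rats 1 to 5 (7.54 ± 2.82), a range of 6.25. In both genes rats 2, 4 and 5 were high, and rats 1 and 3 were low. Tnni1, the slow inhibitory troponin, read 5.90, 10.89, 6.83, 10.41 and 11.58 in rats 1 to 5, and Tnnc1, the slow calcium-binding troponin, read 5.24, 10.29, 6.51, 9.84 and 11.12. Rat 1 was below its background limit in Tnnt1, Myh7, Tnni1 and Tnnc1, and rat 3 was below it in Myh7 and Tnnc1, so the low ends of these ranges rest on signals under that limit.

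**Figure D1:**
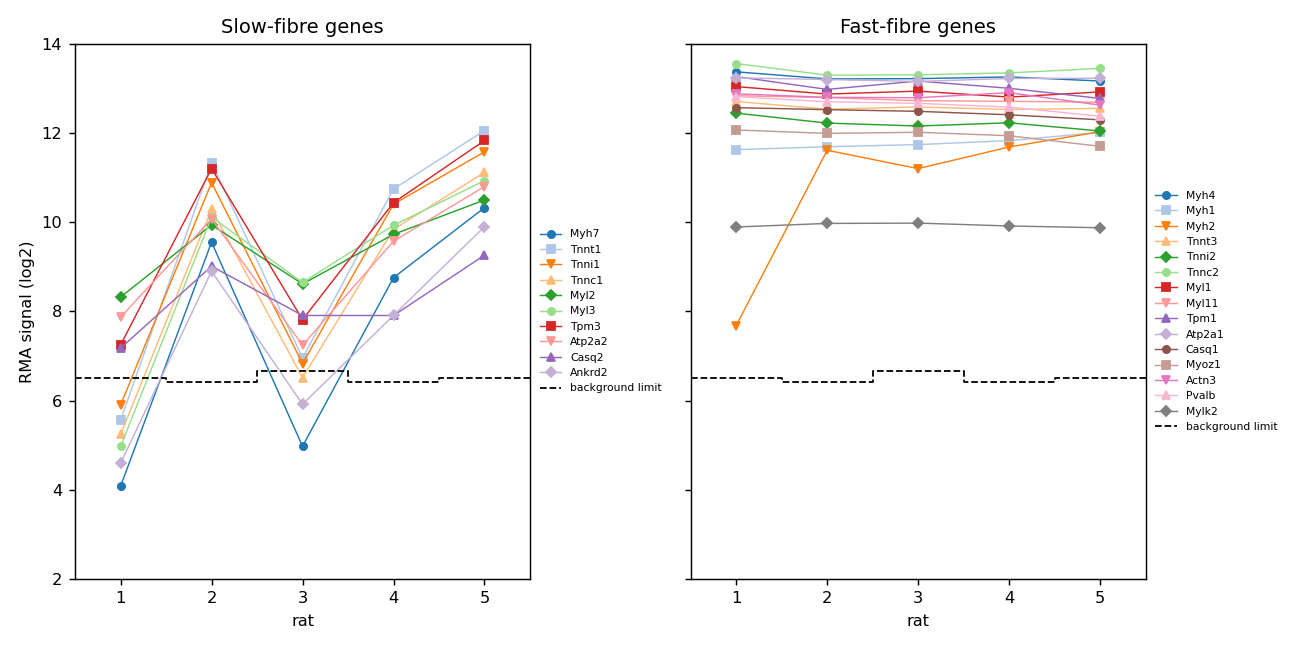
RMA signal (log2) of 10 slow-fibre genes (left) and 15 fast-fibre genes (right) in each of the 5 rats; each marker is 1 rat, lines only join the values of 1 gene, and the dashed line is the background limit of the array. The slow genes are lower in rats 1 and 3 than in rats 2, 4 and 5, except Casq2, which reads 7.91 in both rats 3 and 4, while the fast genes other than Myh2 lie nearly level.

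The promoter windows of 4 slow genes are shown because these genes kept the same order of rats, and those of Myh2 and Myh4 because these fast myosin genes of the same chromosome did not behave alike. Each is the 250 bases before the start of the RefSeq gene model on assembly GRCr8, a newer build than the rn6 of the array annotation. Capitals mark E-boxes (CANNTG, the site of MyoD family factors, read on both strands), MCAT elements (CATTCC, read on both strands) and MEF2 sites.
Tnnt1, chr1:78348785-78349034, plus strand: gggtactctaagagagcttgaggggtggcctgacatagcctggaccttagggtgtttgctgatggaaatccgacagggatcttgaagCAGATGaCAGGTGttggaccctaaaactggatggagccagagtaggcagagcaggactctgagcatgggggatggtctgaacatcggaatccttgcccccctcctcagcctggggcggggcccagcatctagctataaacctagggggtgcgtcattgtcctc
Myh7, chr15:32438195-32438444, minus strand: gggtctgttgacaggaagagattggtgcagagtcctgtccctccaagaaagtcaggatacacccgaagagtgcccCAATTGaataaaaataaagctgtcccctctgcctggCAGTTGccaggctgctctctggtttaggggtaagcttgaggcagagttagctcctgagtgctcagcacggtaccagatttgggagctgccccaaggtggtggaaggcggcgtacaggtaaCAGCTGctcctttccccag
Tnni1, chr13:49781279-49781528, plus strand: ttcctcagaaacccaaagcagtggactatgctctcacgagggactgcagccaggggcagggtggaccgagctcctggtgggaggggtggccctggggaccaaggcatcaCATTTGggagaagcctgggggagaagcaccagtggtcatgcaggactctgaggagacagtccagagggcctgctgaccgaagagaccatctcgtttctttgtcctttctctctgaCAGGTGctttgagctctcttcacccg
Myl3, chr8:119616844-119617093, plus strand: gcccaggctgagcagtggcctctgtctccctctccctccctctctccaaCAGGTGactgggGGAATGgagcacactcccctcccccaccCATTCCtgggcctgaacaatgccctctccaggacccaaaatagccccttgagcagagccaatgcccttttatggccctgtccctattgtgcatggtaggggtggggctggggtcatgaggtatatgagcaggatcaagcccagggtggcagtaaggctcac
Myh2, chr10:52355489-52355738, plus strand: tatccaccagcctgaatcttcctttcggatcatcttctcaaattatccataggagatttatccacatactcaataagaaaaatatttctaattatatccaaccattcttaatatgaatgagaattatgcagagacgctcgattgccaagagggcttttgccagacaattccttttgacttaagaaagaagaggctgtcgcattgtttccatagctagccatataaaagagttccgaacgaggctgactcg
Myh4, chr10:52421898-52422147, plus strand: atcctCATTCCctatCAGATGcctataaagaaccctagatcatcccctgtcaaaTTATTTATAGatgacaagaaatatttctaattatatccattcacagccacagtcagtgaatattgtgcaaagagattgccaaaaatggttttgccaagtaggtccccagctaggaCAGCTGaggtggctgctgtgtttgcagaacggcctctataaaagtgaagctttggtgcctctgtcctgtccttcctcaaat
An E-box was present in all 8 slow-fibre promoters that the table holds and in 10 of 13 fast-fibre promoters, beside 65.5% of 33469 rat promoters of this length. A MEF2 match was found in 1 of the 8 slow and 3 of the 13 fast promoters, beside 2.96% of all, and an MCAT match in 1 of 8 and 3 of 13, beside 12.1%. The Myh4 window holds 2 E-boxes, 1 MCAT and 1 MEF2 match, and the Myh2 window none of these. These are matches of letters, and no binding was measured.

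The other slow genes differed in the place of rat 3 and in the size of their ranges. Myl3, the slow essential light chain, read 4.97 in rat 1, 10.11 in rat 2, 8.65 in rat 3, 9.93 in rat 4 and 10.93 in rat 5, so that rat 3 lay nearer to the high rats than in Myh7 and rat 1 was under its limit. Without rat 1 its range was 2.28 in place of 5.96. Tpm3, the slow tropomyosin, ranged over 4.59, from 7.25 in rat 1 to 11.83 in rat 5. A second of its 3 probe sets ranged over 5.48, and the third over less than 2. Ankrd2, a stretch-responsive ankyrin repeat protein of slow fibres, ranged over 5.31. The slow calcium pump Atp2a2 was lowest in rat 3 (7.24) and next lowest in rat 1 (7.87), and read 10.07, 9.58 and 10.80 in rats 2, 4 and 5. Myl2, the slow regulatory light chain, and Casq2, the calsequestrin of slow and cardiac muscle, had the smallest ranges of the list, 2.18 and 2.09, and were above background in all 5 rats.

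Of the 10 slow genes, 8 ran in the order rat 5, rat 2, rat 4, rat 3, rat 1 from high to low, as Tnnt1 did. The exceptions were Atp2a2 and Casq2. In Myh7, Tnnc1 and Ankrd2, 3 of the 8, rats 3 and 1 were both under background, so that their order at the low end rests on such signals. The same order was found in 1.07% of all probe sets, in 4.19% of those spread over at least 1 unit and in 27.9% of the 68 spread over at least 2. These shares include the slow genes themselves, and 11 of the 68 were probe sets of the slow list. The members of the list are parts of the same fibres in the same 5 samples and are not independent of each other.

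The adult myosin heavy chains did not move together. Myh4, the type IIb chain, was at 13.38, 13.22, 13.22, 13.26 and 13.17 in rats 1 to 5, a range of 0.21. Myh1, the type IIx chain, was at 11.63, 11.69, 11.74, 11.83 and 12.02, a range of 0.39. Both varied little, with rat 1 highest in Myh4 and lowest in Myh1. Myh2, the type IIa chain, was at 7.68 in rat 1 and at 11.62, 11.20, 11.69 and 12.03 in rats 2 to 5 (10.84 ± 1.79), so that rat 1 lay apart and rat 3 lay with the others. Its range was 4.35, or 20.4-fold, and without rat 1 it was 0.83. Rat 3 thus was low in the type I chain and not in the type IIa chain, while rat 1 was low in both. The adult chains are near-identical in long stretches, and cross-matching of their probes was not tested.

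The rest of the fast list varied little, as did probe sets of like signal. The median range of the list was 0.27, beside 0.28 for the 26 probe sets with a mean above 12, fast genes among them. The small ranges are thus not particular to fast genes. Of 16 listed fast-fibre genes 15 were measured, and all 15 were above background in every rat. Myh2 alone spread over at least 1 unit (6.67%), beside 4.63% of all probe sets. The list median lay at 12.82, 12.70, 12.67, 12.58 and 12.56 in rats 1 to 5, a difference of 0.26, and without rat 1 it was 0.15. Rat 1 had the highest value in 11 of the 15 genes, and rat 5 the lowest in 9, beside 23.3% and 17.5% of all probe sets. Pvalb, the calcium buffer parvalbumin of fast fibres, read 12.82 in rat 1 and 12.38 in rat 5. Tpm1 had the widest range after Myh2, 0.49, followed by Pvalb (0.44) and the fast inhibitory troponin Tnni2 (0.40). Tnnt3, Myl1, Myl11, Casq1, Myoz1, Actn3 and Tnnc2 ranged over 0.15 to 0.37. Atp2a1 had a range of 0.08 and Mylk2, the kinase of the fast regulatory light chain, 0.10.

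**Figure D2:**
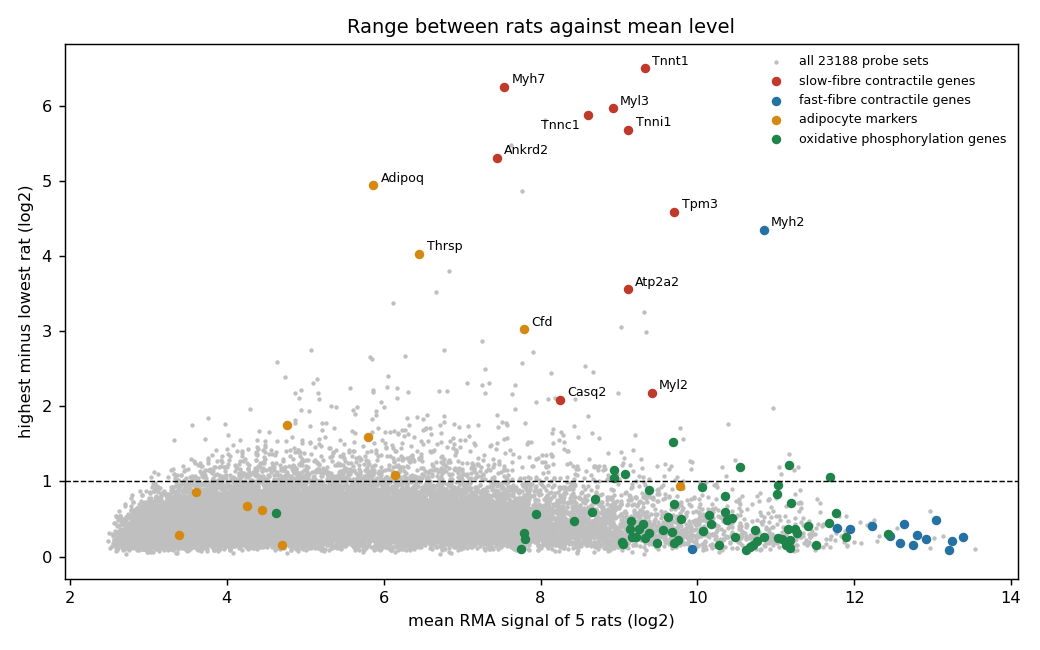
Range between the highest and lowest rat (log2) against the mean RMA signal of the 5 rats (log2) for all 23188 probe sets (grey) and 4 gene lists (coloured); the dashed line marks a range of 1. The slow-fibre genes, Myh2 and the adipocyte genes Adipoq, Thrsp and Cfd lie above a range of 2, with Tnnt1 highest at 6.50.

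The 15 genes of largest range outside the slow list were Adipoq (4.94), Myh2, Thrsp, Rbp4, Atp1b1, Csrp3, Cfd, Ldhb, Pdk4, Fos, Cdo1, Cnn1, Trarg1, Lmod2 and Pdlim1 (2.54). Most are described with their groups below. Lmod2, a leiomodin that elongates the thin filament, read 7.45, 8.03, 6.27, 8.20 and 8.84 in rats 1 to 5, lowest in rat 3.

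Likeness to Tnnt1 was measured as the root mean square difference of the deviations from each gene's own mean over the 5 rats. The nearest probe sets with a symbol were those of Myh7 (0.19), Tnnc1 (0.29), Tnni1 (0.30), Tpm3 (0.54 and 0.78), Ankrd2 (0.75), Myl3 (1.08), Atp2a2 (1.39), Myh2 (1.55) and Csrp3 (1.58), a LIM protein of the Z-disc. Outside the slow list, several genes ran in the Tnnt1 order over at least 2 log2 units. Csrp3 read 7.88, 9.83, 8.40, 9.36 and 11.13 in rats 1 to 5, and Ldhb, the heart-type lactate dehydrogenase subunit, read 7.50, 9.99, 9.02, 9.71 and 10.49. Rats 1 and 3 were lowest in both. Pdlim1 ranged over 2.54, Lmcd1 over 2.44, Thbs4, a matrix protein of muscle and tendon, over 2.17 and Fndc5, the irisin precursor, over 2.10. Without rat 1 the ranges of Csrp3 and Ldhb were 2.73 and 1.47.

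In other genes, as in Myh2, rat 1 was low and rat 3 was not. Atp1b1, a beta subunit of the sodium pump, read 4.21 in rat 1 and 7.16, 7.23, 7.01 and 7.73 in rats 2 to 5, at 0.42 from Myh2 by the same measure. Rat 1 was under background, and the range of 3.52 was 0.72 without it. Myoglobin (Mb), the oxygen store of oxidative fibres, read 9.63 in rat 1 and 11.26, 11.29, 11.03 and 11.62 in rats 2 to 5, and its range of 1.98 was 0.59 without rat 1. Aqp4, a water channel of fast fibres, and Cntfr, the receptor for ciliary neurotrophic factor, were also lowest in rat 1 (6.80 and 6.55) and lay between 8.22 and 8.88 and between 8.30 and 8.64 in the other 4 rats. In these genes rat 1 alone lay apart. They are not sharply separate from the genes in the Tnnt1 order. By the same measure, Myl3 lay at 0.62 from Myh2 and 1.08 from Tnnt1. Ldhb (0.70), Lmcd1 (0.90) and Pdlim1 (0.92) were also among the 10 nearest to Myh2.

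Mitochondrial genes showed the same split at a smaller size. Of 78 listed oxidative phosphorylation genes 68 were measured, and 67 were above background in all rats. Their median was 9.90 in rat 1, 10.16 in rat 2, 10.30 in rat 3, 10.22 in rat 4 and 10.22 in rat 5. Rat 1 was lowest in 48 of the 68 and rat 3 highest in 31, beside 23.2% and 20.1% of all probe sets. The spread of the median was 0.40, and 0.14 without rat 1. Uqcrc1, a core subunit of complex III, read 8.65, 9.76, 10.18, 10.03 and 9.87 in rats 1 to 5, and Atp5f1a, the alpha subunit of ATP synthase, 10.38, 11.14, 11.42, 11.60 and 11.32. Both were lowest in rat 1, with rats 3 and 4 highest. A range of at least 1 was reached by 7 of the 68 (10.3%), beside 4.63% of all probe sets. Without rat 1 it was reached by 0, beside 2.28%.

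The tricarboxylic acid cycle list was alike, with 22 of 25 genes measured and all 22 above background. Its median was 8.97 in rat 1 and 9.46, 9.72, 9.57 and 9.62 in rats 2 to 5, rat 1 was lowest in 19 of 22 genes, and the spread of 0.75 was 0.25 without rat 1. Sdhb, a subunit of succinate dehydrogenase, read 10.70 in rat 1 and 11.24 to 11.40 in the others. Mdh1, the cytosolic malate dehydrogenase, had the largest range of the list, 1.06. Rat 3, low in slow contractile genes, had the highest value in 10 of the 22.

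Genes of fatty acid and ketone use had a median of 7.74 in rat 1, 7.97 in rat 2, 8.30 in rat 3, 8.34 in rat 4 and 8.41 in rat 5 (28 of 29 measured, 22 above background in all). Rat 1 was lowest in 23 of the 28, and the spread of 0.67 was 0.45 without it. Fabp3, the muscle fatty acid-binding protein, read 8.68 in rat 1 and 9.79 to 10.21 in the others, and its range of 1.53 was 0.42 without rat 1. A pair of genes known to rise with fasting and circulating fatty acids had another order. Pdk4, the kinase that shuts pyruvate dehydrogenase, read 5.82, 5.55, 7.16, 8.29 and 7.001 in rats 1 to 5, a range of 2.75 that was 1.62 without rat 4. Ucp3, an inner membrane carrier of muscle, read 5.88, 6.77, 7.29, 8.38 and 8.10, and its range of 2.50 was 1.61 without rat 1. Rat 4 was highest in both. Pdk4 was under background in rats 1 and 2 and Ucp3 in rat 1, so the low ends of these ranges rest on such signals. The feeding state of the rats is not given in the sources used here.

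Glycolysis and glycogen genes differed in rat 5 rather than rat 1. Of 28 listed, 27 were measured, and rat 5 was lowest in 18 and rat 3 highest in 11. The medians were 10.15, 10.24, 10.38, 10.29 and 10.01 in rats 1 to 5. Phka1, the muscle alpha subunit of phosphorylase kinase, read 8.41 in rat 5 and 9.39 to 9.59 in the other 4. Fbp2, the muscle fructose bisphosphatase, was highest in rat 4 at 9.82 and lay between 8.24 and 8.79 in the others. Hexokinase 2 (Hk2) was above background only in rat 4, at 6.57. Outside the list, Pfkfb3, which makes an activator of phosphofructokinase, read 8.91 in rat 1 and 7.40, 7.04, 6.60 and 6.77 in rats 2 to 5, and its range of 2.31 was 0.80 without rat 1.

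Most regulators of fibre type varied by less than 1 unit. Of 27 measured, 4 spread over at least 1 unit (14.8%), beside 4.63% of all probe sets, and 7 were above background in no rat. Ppargc1a, the coactivator of mitochondrial genes, read 7.34 in rat 1 and 7.75 to 8.11 in the others. Prox1, a factor of slow fibres, was above background only in rat 5, at 6.65, and ranged over 1.53. Tead1, which binds MCAT elements, read 8.37, 9.19, 9.06, 9.004 and 9.62 in rats 1 to 5, and Rcan1, a target of calcineurin signalling, 7.34, 8.31, 7.82, 8.45 and 8.54. Mef2a had a range of 0.13. Rat 1 was lowest in 13 of the 27. Without rat 1, Prox1 was the 1 regulator that spread over at least 1 unit, beside 2.28% of all probe sets. The ranges of Tead1 and Rcan1 were then 0.61 and 0.72.

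In the Z-disc list, Csrp3 (described above), Actn2, Tcap and the small heat shock protein Cryab spread over at least 1 unit, 4 of 17 genes measured (23.5%), beside 4.63% of all probe sets. Without rat 1, 2 of 17 did, beside 2.28% of all probe sets. The range of Actn2 was then 0.40 in place of 1.19 and that of Tcap 0.80 in place of 1.13. Actn2, the alpha-actinin of all fibres, read 10.28, 11.06, 11.10, 11.33 and 11.47 in rats 1 to 5, and the fast-fibre alpha-actinin Actn3 ranged over 0.28. Among 17 measured genes of calcium release and reuptake, Atp2a2, Casq2 and Sln were the 3 that spread by 1 unit (17.6%), beside 4.63% of all probe sets. Without rat 1 there were 2, beside 2.28%. The voltage sensor Cacna1s ranged over 0.33 and Hrc over 0.18. Among developmental myosins, Myh3, the embryonic chain, read 7.13, 7.90, 7.02, 7.32 and 8.98 and was highest in rat 5, and Myh8, the neonatal chain, ranged over 0.41.

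**Figure D3:**
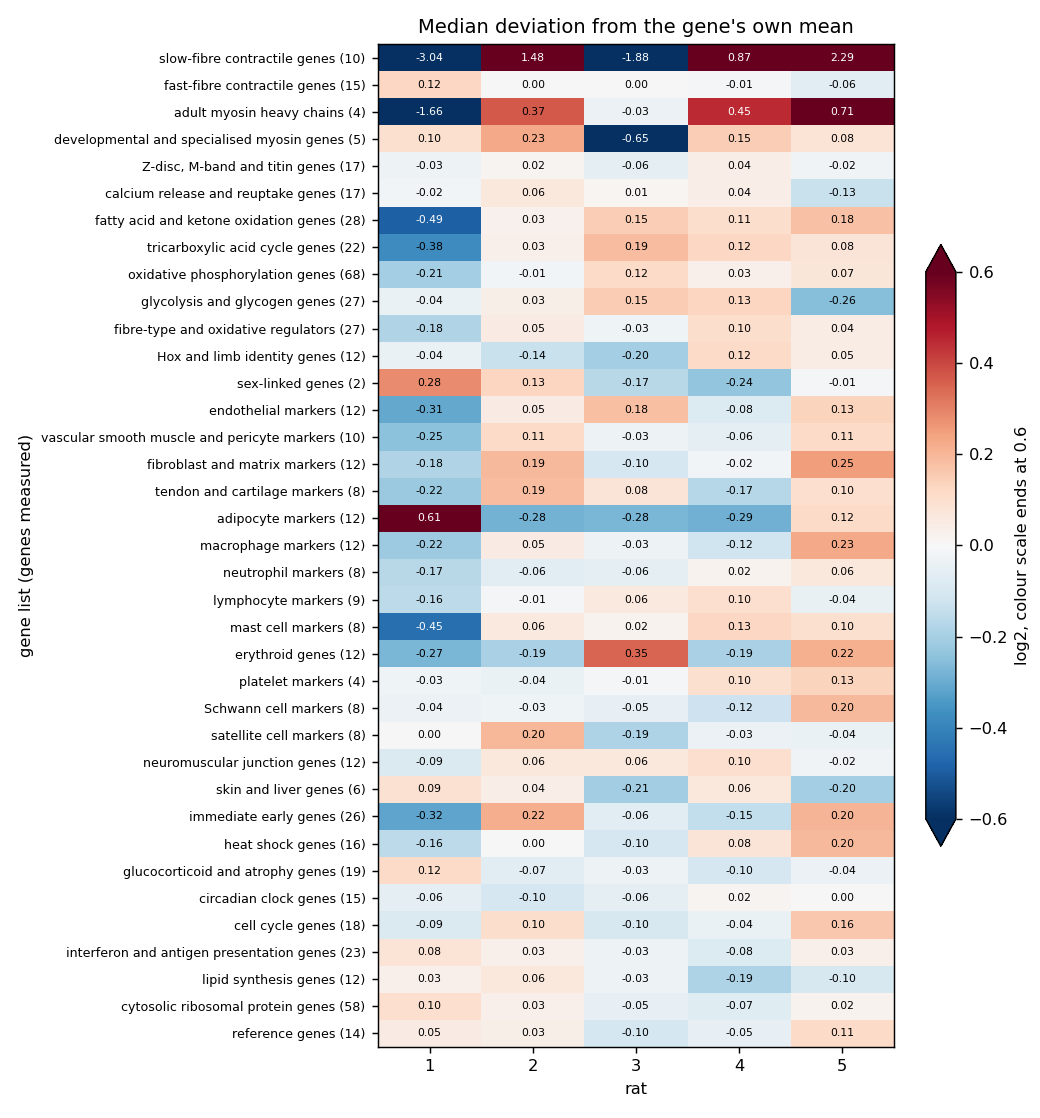
Median deviation (log2) of each gene list in each rat from the genes' own means over the 5 rats, with the number of genes measured in brackets; red is above and blue below the mean, and the colour scale ends at 0.6. Slow-fibre genes reach -3.04 in rat 1 and 2.29 in rat 5, and adipocyte markers 0.61 in rat 1.

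Markers of the other cells of muscle were read next. Endothelial markers were measured for 12 of 13 genes, with 7 above background in all rats. Cdh5, the cadherin of endothelial junctions, stood at 9.20 to 9.76 and Pecam1 at 7.56 to 8.05, and rat 1 had the lowest value in 9 of 12. Fibroblast and matrix markers were above background in all rats for 9 of 12 genes, with the proteoglycan Dcn at 11.57 to 11.94 and the collagen Col1a1 at 10.40, 11.50, 10.92, 11.28 and 11.24 in rats 1 to 5. Rat 1 was again lowest in both. In smooth muscle, Cnn1 read 4.46, 6.15, 5.90, 5.64 and 7.09 and, like the lineage marker Myh11, was above background only in rat 5, so that its range of 2.63 (1.44 without rat 1 and 1.69 without rat 5) rests on signals under the limit. The list medians were 8.20 for smooth muscle and 9.38 for matrix in rat 5, and 7.42 and 8.53 in rat 1.

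Most immune markers were not above background, as was so for most probe sets. No neutrophil marker (0 of 8) and no lymphocyte marker (0 of 9) was above background in any rat, where 69% of all probe sets were above it in none. Of 12 macrophage markers, 9 were above it in none, a share near that of all probe sets. The complement gene C1qa, at 7.01 to 7.38, was the 1 macrophage marker above it in all rats, beside 21.6% of all probe sets. The macrophage gene Lyz2 read 5.47, 6.62, 6.21, 6.19 and 7.10 in rats 1 to 5, above background in rats 2 and 5 only. The mast cell protease Cpa3 read 5.16 in rat 1 and 6.37 to 6.91 in rats 2 to 5, above background in rats 4 and 5 only. Of the platelet markers, Pf4 stood at 6.97 to 7.68. Satellite cell markers, the stem cells of muscle, were below background in every rat for 6 of 8 genes, Pax7 and Myf5 among them, a share (75%) near that of all probe sets (69%), and cell cycle genes for 16 of 18. Skin and liver genes, which would mark other tissue, were below background for all 6. A marker below this limit may still be expressed at a low level.

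Globins differed moderately between rats. The alpha globin Hba-a1 read 11.13, 11.29, 11.87, 11.41 and 11.90 in rats 1 to 5, and the beta globin Hbb 9.62, 10.21, 10.76, 10.19 and 10.82. Rats 3 and 5 were highest in both. Slc4a1, the anion exchanger of red cells, was below background in all rats. Globin genes are near-identical copies, and their probes may share signal.

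Nerve and endplate genes did not vary less than other probe sets. The median range was 0.48 for the neuromuscular junction list and 0.60 for the Schwann cell list, beside 0.47 over all probe sets. Of 12 neuromuscular junction genes 6 were above background in all rats, with acetylcholinesterase (Ache) at 8.99 to 9.30. Chrnd, the delta subunit of the acetylcholine receptor, was the 1 gene of the list (8.33%) with a range over 1, beside 4.63% of all probe sets. It read 6.68, 7.21, 6.72, 7.08 and 7.93 in rats 1 to 5, in the Tnnt1 order. Of 8 Schwann cell markers, Pmp22 and Prx were above background in all rats, and the defining myelin gene Mbp in none.

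Adipocyte genes formed the other large difference between rats, and it ran the other way from the slow-fibre genes in rat 1. Adipoq, the hormone adiponectin made by fat cells, read 8.52 in rat 1 and 3.58, 5.50, 5.30 and 6.45 in rats 2 to 5, and was above background in rat 1 alone. Cfd, the fat cell protease adipsin, read 9.42, 6.40, 6.95, 7.31 and 8.87 in rats 1 to 5, and Thrsp, a regulator of lipid synthesis, 8.99, 4.96, 5.71, 6.02 and 6.60. Rat 1 was highest in all 3, and rat 5 came next. Their ranges were 4.94, 3.02 and 4.03, and 2.87, 2.47 and 1.64 without rat 1, with low ends under background.

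Of the 12 adipocyte markers measured (of 14 listed), 9 were highest in rat 1, beside 23.3% of all probe sets. The list median was 6.16 in rat 1, 4.43 in rat 2, 4.96 in rat 3, 4.97 in rat 4 and 5.51 in rat 5. Only Fabp4, a lipid-binding protein that capillary endothelium also makes, was above background in all rats, and Cidec, Lep, Retn, Cebpa, Pck1 and Ucp1 were above it in none. The order rat 1, rat 5, rat 4, rat 3, rat 2 was shared by Thrsp, Cfd, Rbp4, Cdo1, Trarg1, Dgat2 and Sncg. Adipoq ran in another order, with rat 3 above rat 4. The 7 genes were all those with the Thrsp order among the 68 probe sets with a range of at least 2 (10.3%). It was found in 0.755% of all probe sets and in 1.21% of those spread over at least 1 unit. The order was taken from these data and the shares include the 7 genes, so setting them side by side tests nothing. Of these 7 genes only Sncg was above background in all rats, while Cfd was above it in 4, Rbp4 in 3, Thrsp and Cdo1 in 2, Dgat2 in 1 and Trarg1 in 0, so that much of the shared order rests on signals under the limit, where order is uncertain. The part of fat tissue in the low slow-fibre values of rat 1 was not tested. Rat 5, second in adipocyte genes, was highest in slow-fibre genes.

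Lipid synthesis genes shared the high values of rat 1 in part, and not the places of rats 2 and 5. Fasn, the fatty acid synthase, read 8.47 in rat 1 and 7.07, 6.73, 6.73 and 6.99 in rats 2 to 5, and its range of 1.74 was 0.34 without rat 1. Acaca and Scd were also highest in rat 1, while Acacb, the muscle isoform of acetyl-CoA carboxylase, was lowest there at 6.74, against 7.36 to 7.79 in the others. In all, 5 of the 12 measured genes were highest in rat 1, beside 23.3% of all probe sets. Rat 2, lowest in the median of the adipocyte list, was highest in 4 of the 12 and lowest in 0. Rat 5, second in that median, was lowest in 5 of the 12.

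**Figure D4:**
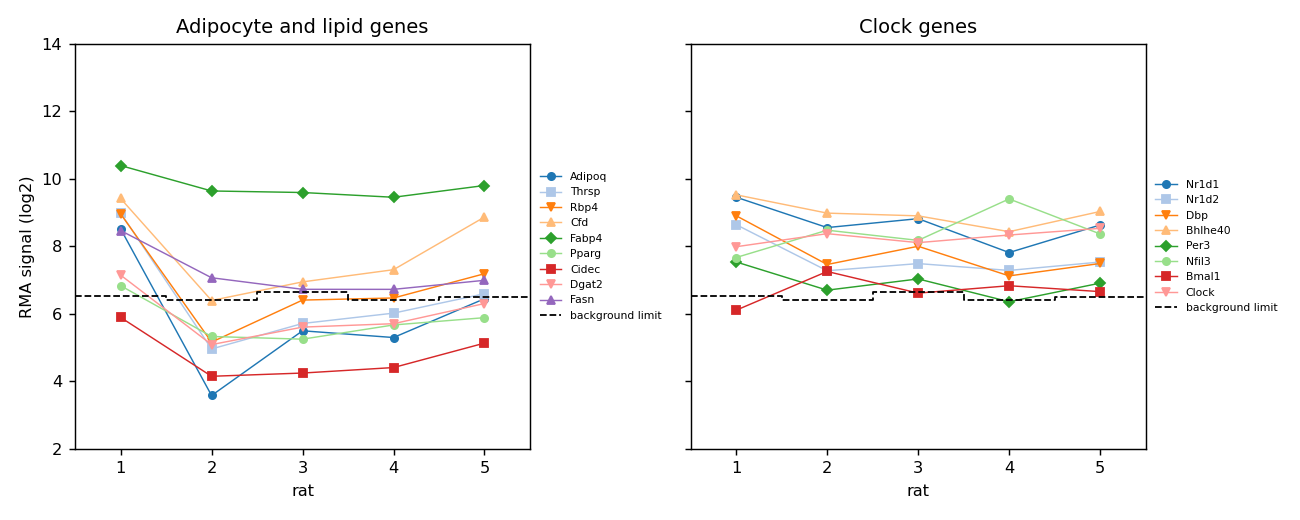
RMA signal (log2) of adipocyte and lipid genes (left) and of circadian clock genes (right) in each of the 5 rats; lines only join the values of 1 gene, and the dashed line is the background limit of the array. The genes drawn are a selection made with their values known. Rat 1 is highest in the 9 adipocyte and lipid genes drawn and in Nr1d1, Nr1d2, Dbp, Bhlhe40 and Per3, and lowest in Nfil3 and Bmal1. Among genes not drawn, the adipocyte markers Lipe and Cebpa are highest in rat 5 and Ucp1 in rat 4. The lipid gene Acacb is lowest in rat 1.

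Clock genes also set rat 1 apart, in opposite directions. The clock is a loop in which Bmal1 and Clock drive their own repressors over the day, and Dbp, Nr1d1 and Nr1d2 are its direct outputs. Dbp read 8.91, 7.46, 8.004, 7.13 and 7.49 in rats 1 to 5, Nr1d1 9.46, 8.56, 8.82, 7.82 and 8.63, and Nr1d2 8.64, 7.28, 7.49, 7.29 and 7.54. Rat 1 was highest in these and in Bhlhe40 and Per3. Bmal1, which the Nr1d factors repress, read 6.11 in rat 1 and 6.61 to 7.26 in the others, and Nfil3, which opposes Dbp, read 7.67, 8.48, 8.18, 9.41 and 8.37. Rat 4 was the reverse of rat 1, highest in Nfil3 and lowest in Nr1d1, Dbp and Per3. Of 15 measured clock genes 8 spread over at least 1 unit (53.3%), beside 4.63% of all probe sets. Without rat 1, 2 did so, beside 2.28%. The ranges of Dbp and Nr1d1 were 1.78 and 1.64, and 0.88 and 1.004 without rat 1. The list median differed by only 0.46, its members having moved both ways.

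Immediate early genes, which are induced within minutes of a stimulus, were lowest in rat 1 in 12 of 26 and highest in rat 5 in 10 and in rat 2 in 8, beside 23.2%, 18.2% and 17.1% of all probe sets. Fos read 6.33, 9.04, 7.71, 7.88 and 8.58 in rats 1 to 5, Jun 7.46, 9.05, 8.33, 8.83 and 8.72, and Egr1 8.78, 10.08, 8.97, 9.01 and 9.59. Rat 2 was highest and rat 1 lowest in all 3. The range of Fos was 2.72, and 1.34 without rat 1. A range of at least 1 was found for 13 of the 26 (50%), beside 4.63% of all probe sets, and for 9 without rat 1, beside 2.28%. Of the 26, 6 were above background in all rats and 14 in no rat. Part of these ranges thus rests on signals under the limit.

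Stress and growth genes differed singly. Mstn, the myostatin that limits muscle growth, read 9.25, 8.62, 7.98, 7.97 and 7.14 in rats 1 to 5, a range of 2.11 that was 1.27 without rat 5 and 1.48 without rat 1. The small heat shock protein Hspb7 read 6.96, 7.67, 6.71, 7.95 and 8.87, and Hspb6 10.78, 11.29, 11.21, 11.18 and 11.97. Rat 5 was highest in both. Of the ubiquitin ligases of atrophy, Fbxo32 lay between 7.73 and 8.24, a range of 0.51 beside a median of 0.47 over all probe sets, and Trim63 between 7.71 and 7.96, and Sgk1, a kinase induced by glucocorticoids, ranged over 1.51. Interferon and antigen presentation genes reached a range of 1 in 0 of 23, beside 4.63% of all probe sets, which for a list of this length is near that share. Their median range was 0.51, beside 0.47 over all probe sets, and B2m read 9.47 to 10.24.

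Principal components were taken of the 5020 probe sets above background in all rats, each centred on its own mean. This filter leaves out slow genes that fell below background in rat 1 or 3, such as Tnnt1 and Myh7. The first component held 49.3% of the variance, the second 23.8%, the third 15.1% and the fourth 11.8%. Scores on the first (in log2 units, summed over the probe sets weighted by their loadings) were 19.4 for rat 1 and -1.36, -3.56, -7.80 and -6.65 for rats 2 to 5, so that it set rat 1 against the rest. The 15 probe sets of largest loading were Myh2, Tpm3, Ldhb, Cntfr, Csrp3, Pdlim1, Lmcd1, Aqp4, Atp2a2, Mb, Sfrp4 and Myl2, low in rat 1, and Pfkfb3, Fasn and Mstn, high in rat 1. Of the 50 largest loadings, 4 were of slow-fibre genes, and the filter had kept only 4 of the 10 measured.

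The second component ran from rat 5 (10.6) and rat 2 (3.77) to rat 4 (-5.36) and rat 3 (-9.12), with rat 1 near 0 at 0.08. At the rat 5 end stood Tpm3, Atp2a2, Csrp3, Myh3, Car3 (a carbonic anhydrase), Hspb7, Myl2 and Casq2, and at the other end Fn3k, Mybph, Pfdn6, Fbp2, RGD1565323, Gpt2, Phka1 and Actc1. Car3 read 10.94, 10.50, 9.44, 9.90 and 11.21 in rats 1 to 5, highest in rats 5 and 1. The slow contractile genes were low in rat 1, and the adipocyte list median was highest in rat 1 and next in rat 5. The cells that Car3 came from were not tested. Mybph, a myosin-binding protein, read 8.64 in rat 5 and 9.89 to 10.35 in the others. The third component set rat 4 (9.10) against rat 3 (-7.92), with Tnfrsf12a, the receptor for TWEAK, Enah, Atp1b4, Igf2, Fbp2, Abra, Atp2a2 and Tpm3 at the rat 4 end, and Sgk1, RGD1565323, Sema4d, Rcan2, Retsat, Mybpc1, Ccn1 and Hba-a3 at the rat 3 end. Mybpc1, the slow-type myosin-binding protein C, read 9.87, 10.36, 10.64, 9.68 and 10.54 and was highest in rat 3, unlike the slow-fibre list.

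**Figure D5:**
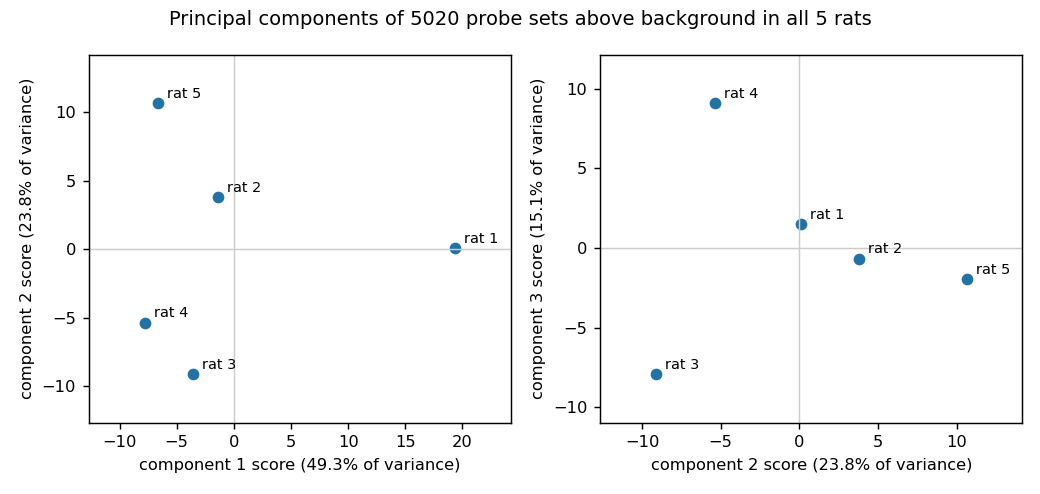
Scores of the 5 rats on the first 3 principal components of the 5020 probe sets above background in all rats (axes in log2 units, with the share of variance); each point is 1 rat. Rat 1 lies alone on the first component at 19.4, and the second runs from rat 3 at -9.12 to rat 5 at 10.6.

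Some transcripts were almost constant. Among probe sets with a symbol and a mean above the 75th percentile, the smallest SDs were those of Ncl (nucleolin, 9.31 ± 0.01), Atp6v1h (6.86 ± 0.02), Ctdnep1 (8.46 ± 0.02), Scoc (8.69 ± 0.03) and Arih1 (7.97 ± 0.03), followed by Rbbp4, Fbxo9, Atp2a1, C1qbp and Ndufc2. Among genes used as references, Gapdh read 13.31, 12.97, 12.95, 12.89 and 12.71 in rats 1 to 5, a range of 0.60 or 1.52-fold, Actb ranged over 0.31 and Tfrc over 0.79. None of the 14 measured reference genes and 0 of 58 cytosolic ribosomal protein genes spread over 1 unit, beside 4.63% of all probe sets. Their median ranges were 0.50 for the reference and 0.28 for the ribosomal protein genes, beside 0.47 over all probe sets. Ribosomal protein genes were highest in rat 1 in 32 of the 58, with medians of 10.49 in rat 1 and 10.22 to 10.39 in the others.

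The labels were checked against defining genes. The Y-linked gene Ddx3y was above background in all 5 rats, at 6.52 to 7.42, and Eif2s3y, the other measured Y-linked gene, in 2 of 5, at 6.38 to 6.71. The hindlimb factors Pitx1 and Tbx4 were below background on every array, so the site could not be read from them, and Hoxd9, of the limb Hox genes, was above it in 4 rats at 6.50 to 7.73. Skeletal muscle genes such as Acta1 and Des (11.01 to 11.14) were strong in all.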

How the data were processed

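The authors labelled 10 ng of total RNA with the 3′ IVT Pico kit, hybridized 1 Clariom S array per rat and processed all 10 arrays with RMA in the Transcriptome Analysis Console (4.0 in the submitters' notes, build rn6). The deposited values are log2 signals, background-corrected and quantile-normalized, so a shift common to all genes is not visible; they were used as deposited. The 5 columns of the 48 h rats were not used. Of 24834 rows, 1646 controls were left out (1552 RG1, 63 ERCC, 31 AFFX). Symbols came from the platform table. A gene with several probe sets was read by the brightest. Gene lists (37, with 662 genes, 572 measured) and the naming rule were chosen with earlier results of these data known. The rule names all fibre-type genes, the 20 brightest, the brightest and widest member of each list, the 15 widest outside the slow list, the 10 nearest to Tnnt1, the 10 steadiest, and the 15 (first component) or 8 per sign largest loadings; others were named after their values were seen. No groups were compared; Dixon's criterion for 5 values (0.71) marked single rats far from the others. Python 3.11.15, pandas 2.3.3, numpy 2.4.6, matplotlib 3.10.9 and limma 3.58.1 (R 4.3.3, alternative normalizations) were used, and the component and likeness steps were tested on simulated data. The number of arrays, 5, limits the precision.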

Additional observations from a re-analysis of the deposited data

Results flagged for a closer look

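A sample was marked as far from the others where its gap to the nearest rat took most of the range of the 5 rats (Dixon's criterion, which chance meets in about 1 in 20 groups). Of 169 gene or list profiles, 17 met it, and rat 1 was the lowest rat in 7 of them. Many of the 169 were named for a wide range, a large loading or likeness to another gene, so their number is not to be read against that chance rate. The gap is given as a share of the range. Rat 1 was lowest in the median of the adult myosin heavy chains (0.768), Myh2 (0.81), Cntfr (0.838), Atp1b1 (0.794), Sdhb (0.775), Uqcrc1 (0.726) and Slc25a4 (0.723), and highest in Fasn (0.803).

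Rat 5 was highest in the median of the heat shock genes (0.726) and lowest in Me1 (0.923), Phka1 (0.828) and Mybph (0.73). Rat 2 was lowest in the median of the glucocorticoid and atrophy genes (0.945) and highest in Des (0.788), whose whole range was 0.13. Of the 19 glucocorticoid and atrophy genes, rat 2 was lowest in 2 and rat 4 in 6. That mark is thus one of the list median and not of most of its genes. Rat 4 was highest in Abra (0.763) and lowest in Sema4d (0.775) and in the cell cycle gene Tyms (0.723), which was below background in all rats. The profiles share the same 5 samples, so these marks are not independent of each other.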

How the results depend on the processing

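The slow-fibre pattern kept its size under the 3 other normalizations tried. The spread of the slow-fibre median was 5.14 as deposited, 5.13 after centring, 5.11 after cyclic loess, 5.14 after quantile normalization, 4.92 over all probe sets of a gene, and 3.77 to 5.14 leaving out each rat. The fast-fibre spread of 0.26 was 0.074 after quantile normalization and 0.15 to 0.26 leaving out each rat. With the 99th percentile as background limit, 3236 probe sets were above it in all rats in place of 5020, and 5030 to 5363 were above the usual limit leaving out each rat. The 1074 spread probe sets were 516 among those above background on at least 1 array, 68 at 2 log2 units, and 529 to 917 leaving out each rat.

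The share of the first component, 49.3%, was 35.7% with all probe sets, 41.2% with each divided by its SD, and 46.9% to 59.8% leaving out each rat. Slow-fibre genes among its 50 largest loadings, 4, were 9 with all probe sets, 0 when divided by the SD, 10 with probe sets above background on at least 1 array (an alternative chosen after seeing the data), and 3 to 7 leaving out each rat. The main filter kept only 4 of the 10 slow-fibre genes, so counts under other filters are not out of the same number. After cyclic loess, 34 of 37 lists kept both their lowest and highest rat; the exceptions were the fast-fibre, heat shock, and glucocorticoid and atrophy lists. No paired analysis was possible because a single group was described and none was compared with it. Signals under the background limit, about 6.4 to 6.7, carry little order.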
